A study of Mus musculus with 12 samples.

Results

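The IGF-binding proteins Igfbp1 to Igfbp7, the growth factor Igf1 and its receptor Igf1r were followed by gene symbol across liver cells sorted by EGFP. All 9 symbols were found among the 54227 gene rows of the normalised count table. The family was chosen by the normalised counts of Igfbp3, which were high in 1 sorted population, called sub, and near 0 in the next brighter one, called low, so the values of Igfbp3 in those libraries are given as a description with no test. The cells came from C57Bl/6 mice carrying a Sox9EGFP transgene and fasted for 16 h, conditions shared by every group. Digested liver was sorted by EGFP signal into EGFP-negative cells (neg) and 3 EGFP-positive populations of rising signal (sub, low and high), with 12000 cells per library and 3 libraries per population. EGFP marks cells in which the transgene is active, so each group is a fluorescence gate and not a purified cell type. The labels give neither the age of the mice nor whether replicates were separate animals, so p-values measure the spread between these libraries, which may in part be technical.

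IGF1 circulates mostly bound to IGF-binding proteins, secreted carriers that prolong its half-life and either restrain or assist its access to IGF1R, a receptor tyrosine kinase that signals through insulin receptor substrates. In adult liver, hepatocytes are the main source of circulating IGF1 and of IGFBP1, which insulin represses and fasting induces, whereas IGFBP3 is made chiefly by non-parenchymal cells. IGFBP7 is a related protein with weak affinity for IGFs that is abundant in endothelium.

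The recovered depth ranged from 8775387 to 15535588 reads per library, with 9039 to 12687 genes above 0. Sox9 itself was between 0 and 0.69 normalised counts in neg and between 3707 and 17140 in the EGFP-positive libraries. The 10 biliary markers summed to between 199.0 and 412.5 in neg, 19825 to 35892 in sub, 68121 to 91712 in low and 63117 to 69489 in high. The list included Sox9 itself and Spp1, which averaged 18963 over the 12 libraries. Epcam and Krt7 had higher means in low and in high than in sub. Krt19 did not follow the sum, averaging 1794 in sub, 5795.5 in low and 782.9 in high. The 8 Kupffer cell and macrophage markers summed to between 0 and 575.5 in neg and to between 427.4 and 1526 in the other gates. Csf1r made up most of these sums in low and high, with means of 872.5 and 729.0. Adgre1, Marco and Timd4 were at 0 in all low and high libraries. The 8 lymphocyte markers summed to at most 1108 in any library, with Cd3e, Cd3g, Cd79b, Nkg7 and Trbc2 at 0 in all 12.

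Igfbp1 and Igfbp3 lie end to end on mouse chromosome 11 (mm10, GENCODE M21), Igfbp1 from 7197782 to 7202546 on the plus strand and Igfbp3 from 7206086 to 7213923 on the minus strand, 3.5 kb apart with no annotated gene between them. Igfbp2 (72824503 to 72852474, plus strand) and Igfbp5 (72857932 to 72874884, minus strand) form a second such pair on chromosome 1, 5.5 kb apart. Igfbp4 is also on chromosome 11 (99041244 to 99054392, plus strand), Igfbp6 on chromosome 15 (102144362 to 102149511, plus strand), Igfbp7 on chromosome 5 (77349240 to 77408041, minus strand), Igf1 on chromosome 10 (87858265 to 87937042, plus strand) and Igf1r on chromosome 7 (67952827 to 68233668, plus strand). All are protein coding. Igfbp7 overlaps Polr2b, a subunit gene of RNA polymerase II, on the opposite strand; Polr2b was between 0 and 1459 normalised counts, and whether counting used strand is not given in the sources used here, so reads of the overlap cannot be assigned with certainty.

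Promoters are shown for the 3 binding proteins whose neg and sub libraries all lay above their low and high libraries. That of Igfbp1, the silent neighbour of Igfbp3, is shown for comparison. Each is the 250 bases before the RefSeq start (GRCm38.p6), read along the gene's strand at chr11:7197537-7197786 (Igfbp1, plus), chr11:7213924-7214173 (Igfbp3, minus), chr11:99040994-99041243 (Igfbp4, plus) and chr1:72874866-72875115 (Igfbp5, minus).
Igfbp1: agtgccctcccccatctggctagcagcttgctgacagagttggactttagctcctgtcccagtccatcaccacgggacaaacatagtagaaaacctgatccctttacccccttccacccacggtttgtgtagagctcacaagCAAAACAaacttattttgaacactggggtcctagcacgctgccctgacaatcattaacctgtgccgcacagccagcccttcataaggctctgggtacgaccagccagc
Igfbp3: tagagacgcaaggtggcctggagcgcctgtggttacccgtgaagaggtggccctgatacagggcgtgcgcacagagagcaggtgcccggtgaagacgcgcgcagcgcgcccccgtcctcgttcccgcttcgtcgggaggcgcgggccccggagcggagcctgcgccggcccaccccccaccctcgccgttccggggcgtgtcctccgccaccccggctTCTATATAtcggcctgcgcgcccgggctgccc
Igfbp4: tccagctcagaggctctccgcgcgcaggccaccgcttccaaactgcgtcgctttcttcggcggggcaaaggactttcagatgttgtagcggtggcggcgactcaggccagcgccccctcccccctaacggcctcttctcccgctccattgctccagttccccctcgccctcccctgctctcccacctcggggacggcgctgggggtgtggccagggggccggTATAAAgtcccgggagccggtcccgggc
Igfbp5: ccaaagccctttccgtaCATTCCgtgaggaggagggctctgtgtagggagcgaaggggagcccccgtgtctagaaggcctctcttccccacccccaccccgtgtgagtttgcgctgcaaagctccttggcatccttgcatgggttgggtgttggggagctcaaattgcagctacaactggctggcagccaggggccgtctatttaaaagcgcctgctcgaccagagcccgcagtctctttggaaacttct
Capitals in Igfbp1 mark CAAAACA, the half-site of the insulin response element of this promoter, 108 bases before the start. It was searched for after the promoter had been read, and 5.56% of the 32851 promoter windows in the RefSeq table held it on either strand. Capitals in Igfbp3 and Igfbp4 mark matches to TATANA, the core promoter box bound by TBP, which was also added later and was found on either strand in 22.6% of windows; in Igfbp3 the matches on the 2 strands overlap. Those on the gene's own strand began 30 bases before the start in Igfbp3 and 28 in Igfbp4. Capitals in Igfbp5 mark the TEAD core GGAATG read on the opposite strand, 233 bases before the start, which 12.6% of windows held. None of the other 3 windows held CAAAACA. The FOXO core GTAAACA (3.17% of windows), the AP-1 motif TGANTCA (6.75%), the GC box GGGCGG (32.7%) and the SOX motif ACAATGG (3.02%) had no match in these 4 windows on either strand. Each motif was searched as these letters only, so other forms of a site were not covered. All 9 members were searched. Of those not shown, Igfbp2, Igfbp7 and Igf1r held GC boxes, Igfbp2 and Igf1 an AP-1 match, and Igfbp6 matches to TATANA. The windows of Igfbp3 and Igfbp4 were 73.2% and 69.2% G and C, against 53.2% for Igfbp1, 58.8% for Igfbp5 and a median of 52.4% over the table.

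Igfbp3, the main IGF carrier in serum, was abundant in neg and sub and all but undetected in low and high. Its normalised counts were 1156, 5107 and 3518 in neg 1 to 3, and 5875, 6497 and 10796 in sub 1 to 3. In low they were 0, 0.85 and 0, the middle value being a single read, and in high all 3 were 0. Every sub library was above every neg library, the sub mean (7723 ± 2680, SD, n = 3) being 2.37 times the neg mean (3260 ± 1988). Of all genes tested, 4.69% were higher in sub than in neg with no overlap. A library at 0 allows up to 3 reads, which is between 2.45 and 3.03 normalised counts in the high libraries, for counting error alone. High against neg compares 2 groups whose values the rule of choice did not use, although the spread in the fit draws on all 12 libraries. The choice was also made with earlier results of these data known. Igfbp3 was at least 1211-fold lower in high against a floor of 3 reads per library, with a log2 fold change of -11.43 ± 1.95 (SE) on the log2(normalised count + 1) scale and a limma adjusted p of 0.00124. That call held in each of 21 alternative fits, with adjusted p from 6.07e-09 to 0.0176, the last from the fit of neg and high alone.

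**Figure D1:**
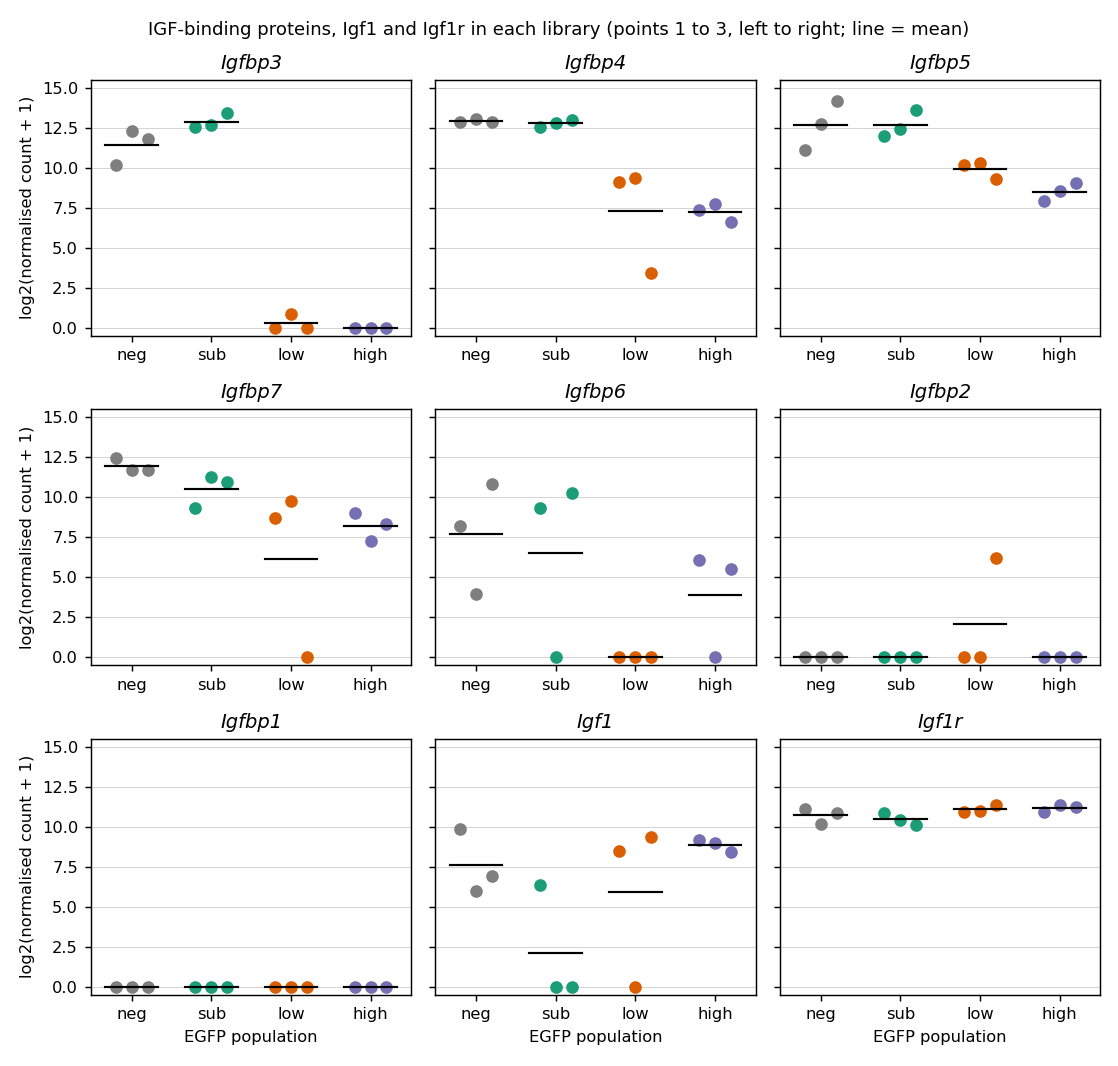
Normalised count of each member in every library, on a log2(normalised count + 1) axis, by EGFP population; points are libraries 1 to 3 and the line is the mean of the logged values. Igfbp3, Igfbp4 and Igfbp5 show no overlap between the 6 neg and sub libraries and the 6 low and high libraries, Igfbp1 is at 0 throughout, and Igf1r stays between 1101 and 2644.

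Igfbp4 and Igfbp5 followed the same division between the gates without reaching 0. IGFBP4 is a mostly inhibitory carrier, and IGFBP5 binds extracellular matrix and is the most conserved of the family. Igfbp4 was the most even of the members in the dim gates, with 7509, 8550 and 7471 normalised counts in neg 1 to 3 and 5851, 7164 and 8129 in sub 1 to 3. It stood at 560.3, 664.4 and 9.86 in low and at 162.7, 208.2 and 96.4 in high. No low or high library came near the lowest sub library, and low 3 lay far below low 1 and low 2.

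Igfbp5 was more variable than Igfbp4 between the libraries of neg and of sub. It measured 2181, 6941 and 18361 in neg and 4041, 5443 and 12509 in sub, against 1163, 1269 and 629.6 in low and 236.2, 380.0 and 521.1 in high. Here too the lowest neg or sub library lay above the highest low or high library, and the high libraries lay below all low libraries. Among the 16128 genes tested, 2.31% had all 6 low and high libraries below all 6 neg and sub libraries.

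Against neg, both genes were lower in the 2 brighter gates. In low, Igfbp4 had a mean of 411.5 ± 351.7, 19.1 times below the neg mean of 7843 ± 612 (log2 fold change -5.62 ± 1.14, limma adjusted p 0.00614). The size rested in part on low 3, without which the log2 fold change was -3.68. Igfbp5 was 8.98 times lower in low than in neg (log2 fold change -2.74 ± 0.71, limma adjusted p 0.0296), and 4.47 times lower without neg 3. In high, Igfbp4 was 50.4 times lower (-5.71 ± 1.14, limma adjusted p 0.00499) and Igfbp5 24.2 times lower (-4.17 ± 0.71, limma adjusted p 0.00112), the latter being 12.03 times without neg 3. High against sub gave similar sizes, 45.3 times for Igfbp4 (-5.55 ± 1.14, limma adjusted p 0.0243) and 19.3 times for Igfbp5 (-4.17 ± 0.71, limma adjusted p 0.00484), the latter being 12.5 times without sub 3.

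Of the 9 members, 7 passed the filter of a mean of at least 10 normalised counts. Leaving Igfbp3 aside outside high against neg, Igfbp4 and Igfbp5 were called in low against neg, where 4.69% of all genes tested were called and 2.15% were called lower. Both were also called in high against sub, where 0.986% of all genes were called and 0.868% were called lower. In high against neg, Igfbp3, Igfbp4 and Igfbp5 were called, beside 4.69% of all genes and 2.25% called lower. These 3 comparisons share libraries and are not independent. The calls for low against neg were fragile. Igfbp4 lost its call there without neg 1, neg 2 or neg 3 (limma adjusted p 0.0776 to 0.0816), and Igfbp5 lost it without any 1 library other than neg 1 (0.0675 to 0.184). Both lost it in a fit of the 2 populations alone (0.251 and 0.257), and Igfbp5 also in DESeq2 (0.0799) and with no filter (0.0738). In high against neg Igfbp4 lost its call without any 1 neg or high library (0.0619 to 0.0777), while Igfbp5 kept it in 20 of 21 alternatives, all but the fit of the 2 populations (0.0884). In high against sub Igfbp4 lost it without any 1 library other than low 2 and low 3 (0.0549 to 0.177), and Igfbp5 lost it without sub 2, sub 3, high 1 or high 2 (0.0518 to 0.0779). Igfbp4 also lost it with no filter (0.0741), and Igfbp5 in the fit of the 2 populations (0.113).

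Low against sub was the comparison on which the family was picked, so its values are a description. The sub mean was 17.1 times the low mean for Igfbp4 (7048 ± 1144 and 411.5 ± 351.7). Igfbp5 averaged 7331 ± 4539 in sub and 1021 ± 343 in low. Igfbp7 averaged 1678 ± 920 in sub and 431.0 ± 434.2 in low, and its libraries overlapped between these gates. Igfbp6 averaged 632.0 ± 622.2 in sub, where sub 2 was at 0 like the 3 low libraries. Igf1 and Igf1r ran the other way, with low means of 337.5 ± 329.9 and 2192 ± 396 against sub means of 26.5 ± 46.0 and 1458 ± 389. Among all genes tested, 0.744% were called in this comparison.

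Sub and neg did not differ detectably in Igfbp4 and Igfbp5. The log2 fold change of sub against neg was -0.16 ± 1.14 for Igfbp4 and 0.00 ± 0.71 for Igfbp5, each with a limma adjusted p of 1. Leaving Igfbp3 aside, no member was called in sub against neg, where 1.19% of all genes were. None was called in high against low either, where limma called 0% of genes and gave the other tested members an adjusted p of 1. Between high and low an unadjusted p under 0.05 was found for 684 genes, 4.24% of those tested, and edgeR and DESeq2 called 1 and 598. Between low and high, Igfbp5 was lower in all 3 high libraries, a 2.69-fold difference in means (log2 fold change -1.43 ± 0.71), but 3.28% of all genes showed the same separation.

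Igfbp7 had its highest values in neg. It measured 5615, 3331 and 3331 in neg, 645.6, 2410 and 1978 in sub, 424.5, 868.3 and 0 in low and 517.5, 153.6 and 323.4 in high. All sub libraries lay below all neg libraries, 2.44 times lower in the mean, a separation that 4.99% of all genes showed, and sub 1 overlapped the low libraries. The log2 fold change was -1.45 ± 1.74 for sub against neg (limma adjusted p 0.799), -5.79 ± 1.74 for low against neg (0.065) and -3.74 ± 1.74 for high against neg (0.29), so Igfbp7 passed in none of these fits. The low value rests on low 3, which was at 0; without it the change from neg to low was -2.70. With a pseudocount of 5 the call in low was made (limma adjusted p 0.0261), and that in high was made without low 3 (0.0132) and in the fit of the 2 populations alone (0.0415).

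Igfbp6, a carrier that prefers IGF2 over IGF1, was irregular. Its counts were 293.6, 14.7 and 1845 in neg, 652.2, 0 and 1244 in sub, 0 in all 3 low libraries and 65.8, 0 and 44.9 in high. Neg lay above low in all libraries, as in 8.52% of all genes, but neg 2 fell below 2 of the 3 high libraries and sub 2 was at 0. The log2 fold change was -7.67 ± 2.97 for low against neg (limma adjusted p 0.183; DESeq2 on recovered reads called it, with an adjusted p of 0.000623) and -3.81 ± 2.97 for high against neg (0.564).

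Igfbp1 and Igfbp2, which are among the carriers that hepatocytes secrete, were nearly absent from every gate. Igfbp1 was at 0 in all 12 libraries although the mice had been fasted, which allows up to 3 reads, or between 2.07 and 3.67 normalised counts, per library. Igfbp2 was at 0 in 11 libraries and at 73.1 in low 3. Neither reached the filter, so neither was tested in the main fit. Each therefore stood at or near 0 beside a neighbour that was abundant in neg and sub: Igfbp3 for Igfbp1 and Igfbp5 for Igfbp2. Of the 10 hepatocyte markers, 8 were above 0 in at least 1 high library and all 10 in at least 1 low library, and they summed to between 395.0 and 871.2 in neg, 6880 and 7523 in sub, 13930 and 21610 in low and 17968 and 20955 in high. The albumin gene Alb made up most of these sums in low and high, with means of 11246 and 11927, whereas Apoa1 averaged 410.8 in neg, 82.4 in low and 53.5 in high. Cps1 was at 0 in all sub and high libraries, and Cyp2e1 in all high libraries.

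**Figure D2:**
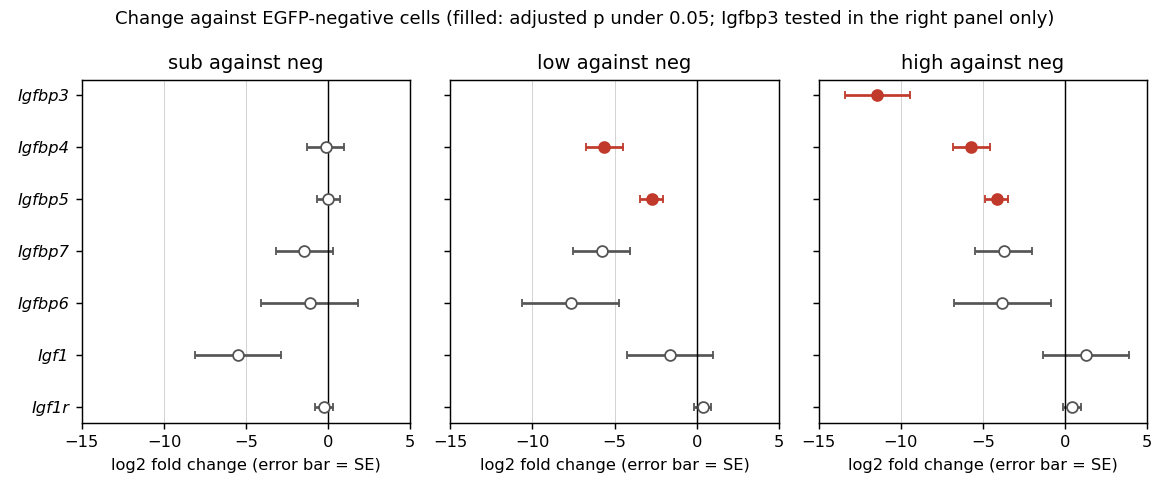
Log2 fold change against neg for each tested member in sub, low and high, from limma on log2(normalised count + 1); points are estimates, bars are SE, and filled points passed an adjusted p of 0.05. Igfbp4 and Igfbp5 lie near 0 in sub and well below 0 in low and high, and Igf1r lies near 0 in all 3 panels.

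Igf1 was low and patchy. It measured 947.2, 62.4 and 118.8 in neg, 79.6, 0 and 0 in sub, 353.3, 0 and 659.2 in low and 582.4, 504.3 and 348.7 in high. High was the most even gate and lay above all sub libraries, as did 7.2% of all genes, while neg and low spanned most of the range. The log2 fold change of high against sub was 6.76 ± 2.62 with a limma adjusted p of 0.338, and that of sub against neg was -5.48 ± 2.62 (limma adjusted p 0.522), so no difference passed.

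Igf1r was the steadiest member. It measured 2221, 1175 and 1834 in neg, 1873, 1400 and 1101 in sub, 1906, 2026 and 2644 in low and 1914, 2602 and 2376 in high. The 6 low and high libraries lay above all sub libraries, as in 2.48% of all genes, but overlapped neg. High exceeded neg by a log2 fold change of 0.43 ± 0.54 (limma adjusted p 0.736) and sub by 0.68 ± 0.54 (0.693), and low exceeded neg by 0.36 ± 0.54 (0.787). A p that misses the threshold does not show that the receptor was equal across gates.

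Levels were compared between members per kb of the longest coding transcript in GENCODE M21, as mean ± SD over 3 libraries. In neg, Igfbp7 led with 3410 ± 1099 normalised counts per kb, followed by Igfbp4 (2047 ± 160), Igfbp5 (1525 ± 1385), Igfbp3 (1347 ± 821), Igfbp6 (645.4 ± 886.6), Igf1r (152.8 ± 46.4) and Igf1 (53.3 ± 70.2). Igfbp7 overlapped Igfbp5 between libraries, and Igfbp4, Igfbp5 and Igfbp3 did not differ beyond their spread. In sub the order was headed by Igfbp3 (3190 ± 1107), then Igfbp4 (1840 ± 299), Igfbp7 (1398 ± 766) and Igfbp5 (1221 ± 756), the last 3 within their spread, with Igfbp6 at 568.4 ± 559.5, Igf1r at 127.8 ± 34.1 and Igf1 at 3.76 ± 6.52.

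In low, Igfbp7 (359.1 ± 361.8), Igf1r (192.1 ± 34.7), Igfbp5 (169.9 ± 57.1) and Igfbp4 (107.4 ± 91.8) lay within their spread of each other. In high, Igfbp7 (276.3 ± 151.7) and Igf1r (201.4 ± 30.7), within their spread of each other, came before Igf1 (67.8 ± 16.9), Igfbp5 (63.1 ± 23.7), Igfbp4 (40.7 ± 14.7) and Igfbp6 (33.2 ± 30.2). The transcript in use is not known from these values: per kb of the shortest coding transcript (489 bp for Igfbp4 against 3831 bp for the longest), Igfbp4 headed neg, sub and low, and Igf1 headed high (938.2 ± 233.2, before Igfbp4 at 318.5 ± 115.0). In low, Igfbp4 (841.6 ± 719.3) and Igf1 (661.7 ± 646.8) lay within their spread of each other.

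**Figure D3:**
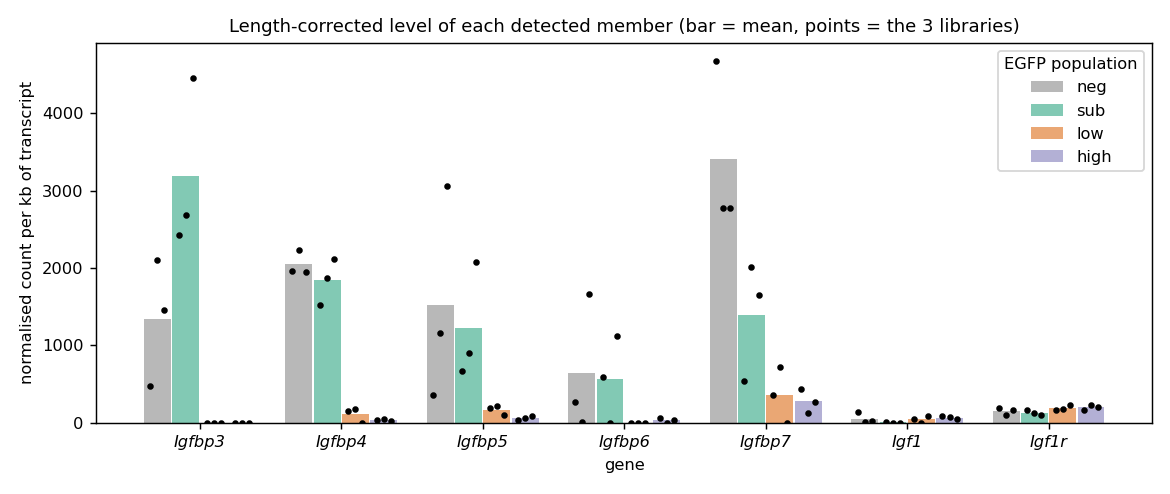
Normalised count per kb of the longest coding transcript for the 7 members with a mean of at least 10, by EGFP population; bars are means and points the 3 libraries. Igfbp3 is the highest bar in sub (3190), Igfbp7 the highest in neg (3410), and Igf1r is between 96.5 and 231.7 in every library.

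Summed over Igfbp1 to Igfbp7, the normalised counts averaged 25075 ± 8940 for the neg libraries, 24412 ± 9147 for sub, 1888 ± 1069 for low and 903.3 ± 139.8 for high (SD, n = 3), or 0.236%, 0.219%, 0.0168% and 0.00817% of all normalised counts. The lowest neg or sub library had 16754 and the highest low or high library 2803. Igfbp3 is part of these sums, so no test is given.

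Marker lists of other cell types are given beside these sums. The stellate and smooth muscle lists were, like the summed IGF-binding proteins, of similar level in neg and sub and lower in low and high. Single members did not all follow the sum: in sub the mean of Igfbp3 was 2.37 times higher than in neg. That of Igfbp7 was 2.44 times lower. The 10 stellate and mesenchymal markers, each above 0 in at least 1 library of neg and of sub, summed to between 23139 and 39365 in neg, 26068 and 36344 in sub, 180.8 and 1642 in low and 356.1 and 1763 in high. Lrat, Lum and Hgf were at 0 in all low libraries, and Pdgfrb, Lrat, Col3a1 and Hgf in all high libraries. The 6 smooth muscle markers summed to between 3734 and 11516 in neg, 4858 and 11876 in sub, 362.8 and 678.1 in low and 321.4 and 503.9 in high, with Myocd at 0 throughout. The 10 endothelial markers differed between neg and sub as well: they summed to between 147475 and 197287 in neg and to between 38814 and 55555 in sub, 1001 and 2780 in low and 631.3 and 1520 in high; Lyve1 was at 0 in low and Eng in high. The 6 mesothelial markers summed to between 652.2 and 2007 in neg, 653.7 and 3338 in sub, 536.7 and 604.9 in low and 604.4 and 1585 in high, with Wt1 at 0 outside sub. All low sums lay below all neg and sub sums, whereas the high sums overlapped those of every other gate. The part of these cell types in the IGF-binding protein values was not tested. In bulk libraries of sorted cells, fewer cells of a type and less RNA per cell cannot be told apart.

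**Figure D4:**
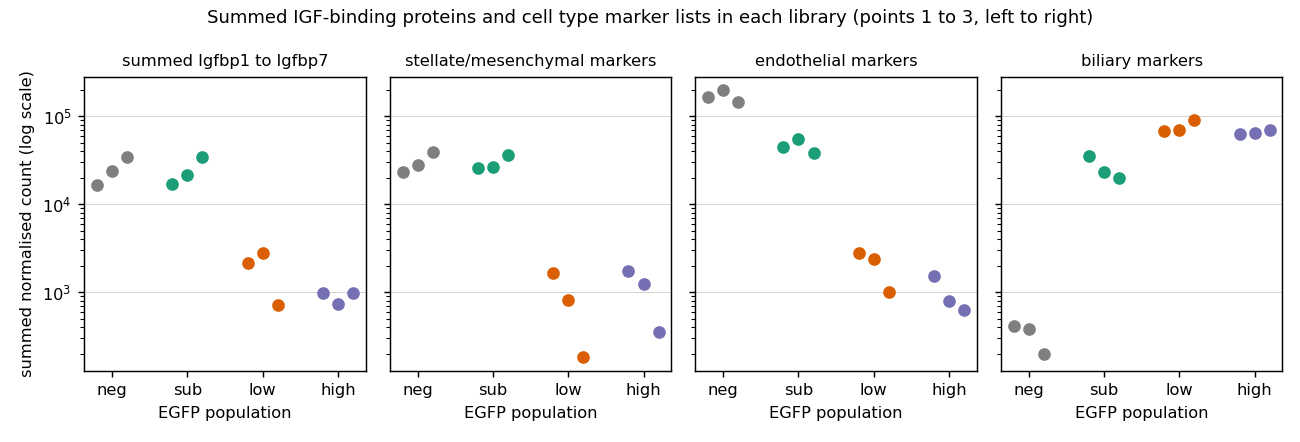
Summed normalised counts of Igfbp1 to Igfbp7 and of 3 marker lists in every library, by EGFP population, on a log axis; points are libraries 1 to 3. The summed IGF-binding proteins and the stellate/mesenchymal markers are level from neg to sub and lower in low and high, the endothelial markers are lower in sub than in neg already, and the biliary markers are lowest in neg.

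For each member with a mean of at least 100, the 3 genes most like it were found among 9613 others by Pearson correlation of log2(normalised count + 1) over the 12 libraries, which share depth, gate and library chemistry. Igfbp3 was most like Adcy5, an adenylyl cyclase (r = 0.998), the microfibril gene Fbn1 (0.997) and Gvin1, an interferon-inducible GTPase gene (0.996). All 3 averaged between 922.7 and 9723 in sub and at most 0.29 in low and high. Igfbp4 was most like the actin-severing protein gene Gsn (0.967), the chemokine gene Cxcl12 (0.967) and Reln (0.956), and Igfbp5 like Mamdc2 (0.926), Cmklr1 (0.919) and Fgl2 (0.908).

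Igfbp7 was most like Kctd12 (0.974), Pakap (0.967) and Pigk (0.961), and Igfbp6 like Fyco1 (0.905), Kctd12b (0.897) and Entpd1 (0.870). Igf1 was most like Herpud2 (0.929), Gm37746 (0.899) and Zfp260 (0.897), and Igf1r like Rnf130 (0.914), Sel1l3 (0.913) and Grpel2 (0.896). Within the family, Igfbp5 had r = 0.903 with Igfbp3, 0.839 with Igfbp4, 0.574 with Igfbp7 and 0.515 with Igfbp6. The value with Igfbp3 was exceeded by 5 genes in likeness to Igfbp5 and by 126 in likeness to Igfbp3. Igf1r had r = -0.72 with Igfbp3. All correlations with Igfbp3 are a description, since they include the sub and low values by which the family was chosen.

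Among 43 other genes of the IGF pathway, 36 passed the filter and 2, Irs2 and Pappa, passed the test, in low against neg and in high against neg. That is close to the share of all genes called, 4.69% in both comparisons (2.55% higher and 2.15% lower in low, 2.44% and 2.25% in high), so the count is not a result about the pathway. The median log2 fold change of the 36 was -0.68 for low against neg and -0.26 for high against neg, beside 0.00 and 0.13 over all genes tested. At an unadjusted p under 0.05 there were 7 of the 36 in each, beside 16.0% and 16.4% of all genes. None was called by limma in sub against neg, low against sub, high against low or high against sub, with 1, 5, 0 and 5 of the 36 at an unadjusted p under 0.05, beside 9.54%, 10.2%, 4.24% and 10.2% of all genes.

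Irs2, a docking protein that carries the signal of the insulin and IGF1 receptors, was higher in low and in high than in neg. It measured 106.4, 1178 and 522.5 in neg, 1959, 1977 and 2091 in sub, 1973, 2689 and 3036 in low and 2944, 3989 and 5104 in high. All EGFP-positive libraries lay above all neg libraries, as in 2.06% of all genes. The rise against neg was 4.26-fold in low (log2 fold change 2.64 ± 0.72, limma adjusted p 0.0405) and 6.66-fold in high (3.27 ± 0.72, limma adjusted p 0.0106). In sub the difference of 3.34-fold in means did not pass (limma adjusted p 0.187). Its neg mean of 602.2 was 314.5 without neg 2. The call in low was lost without any 1 library other than neg 2 (0.0673 to 0.168), and that in high without high 1, high 2 or high 3 (0.0576 to 0.0862). Without neg 1 the log2 fold change was 1.69 in low and 2.32 in high. Without neg 2 the ratios of means were 8.16 in low and 12.8 in high. The call in low was also lost in edgeR (adjusted p 0.093) and DESeq2 (0.35), with no filter (0.0799) and in the fit of the 2 populations alone (0.337). That in high was also lost in DESeq2 (0.142) and in the fit of the 2 populations (0.173).

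Pappa, a metalloprotease known for cleaving IGFBP4 and so freeing IGF, was detected in all 3 neg libraries and in 2 of 3 sub libraries. It measured 543.1, 819.4 and 1568 in neg and 0, 287.4 and 402.0 in sub, and was at 0 in all 6 low and high libraries. It was at least 405-fold lower in low than in neg and at least 363-fold lower in high, against a floor of 3 reads per library (log2 fold change -9.79 ± 2.58 in both, limma adjusted p 0.0332 and 0.0333). The call in low was lost without any 1 neg, low or high library (0.0519 to 0.0925), and that in high without any 1 neg or high library (0.0685 to 0.0978). Both calls were also lost in edgeR (adjusted p 0.0974 and 0.0985) and with no filter (0.0657 and 0.0641), and that in low in the fit of the 2 populations alone (0.0579). The related protease gene Pappa2 had at most 2.45 normalised counts in any library.

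**Figure D5:**
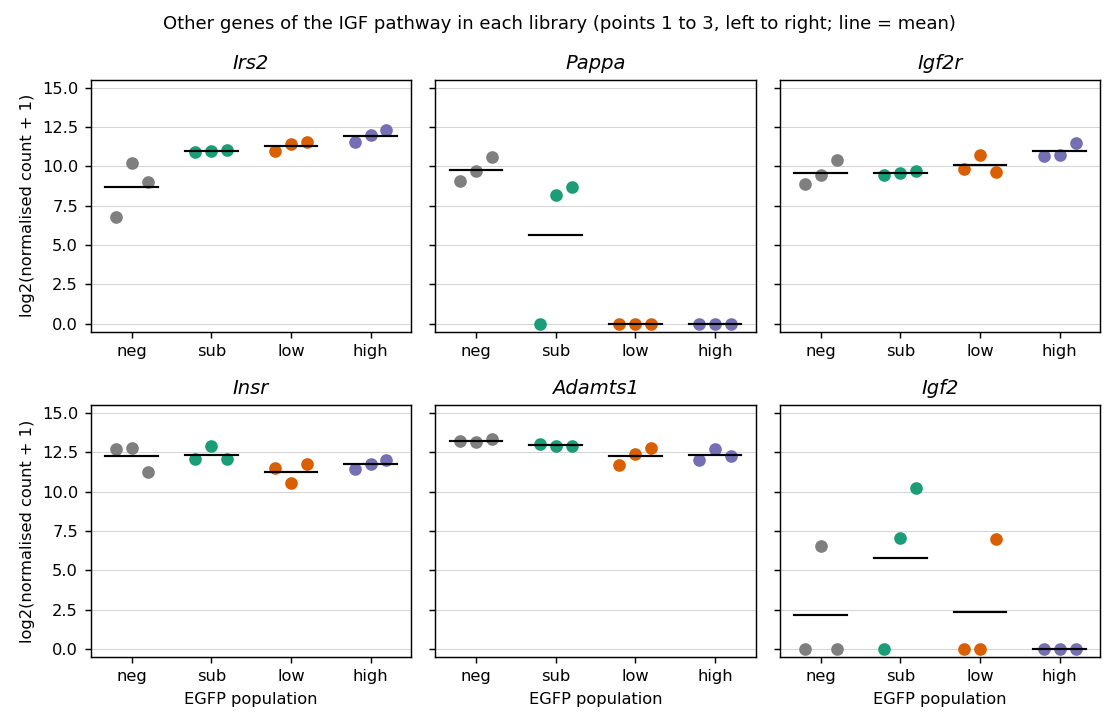
Normalised count of 6 other IGF pathway genes in every library, on a log2(normalised count + 1) axis, by EGFP population; points are libraries 1 to 3 and the line is the mean of the logged values. Irs2 is lowest in neg and highest in high, and Pappa is at 0 in all low and high libraries.

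The other ligands and receptors gave no call. Igf2, the second IGF ligand, was above 0 in 4 of 12 libraries, with 90.5 in neg 2, 134.0 in sub 2, 1217 in sub 3 and 124.9 in low 3. Igf2r, which clears IGF2 from the surface, averaged 845.7 ± 462.6 for the neg libraries, 757.4 ± 58.1 for sub, 1133 ± 493 for low and 2051 ± 697 for high. All high libraries of Igf2r lay above all neg libraries, a separation that 10.2% of genes showed, and the log2 fold change was 1.37 ± 0.75 (limma adjusted p 0.391). Insr, the insulin receptor gene, averaged 5372 ± 2555 for the neg libraries, 5362 ± 1822 for sub, 2597 ± 980 for low and 3493 ± 707 for high (low against neg: -0.98 ± 0.45, limma adjusted p 0.293). Ins1, Ins2, Igfbpl1 and Igfals, whose product holds IGF1 and IGFBP3 in the ternary serum complex, were at 0 in all libraries.

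Growth hormone signalling genes (8 of 8 tested) had no call in any comparison. Socs3, a feedback inhibitor, averaged 4255 ± 1082 in neg and 1250 ± 1032 in low (log2 fold change -2.35 ± 0.73, limma adjusted p 0.0751), and the growth hormone receptor gene Ghr was at 0 in 6 of 12 libraries. Of the 18 downstream signalling genes, all tested, Irs2 alone was called in low against neg and in high against neg. Foxo3, a transcription factor that insulin and IGF signalling restrains, differed from neg by 1.58 ± 0.57 in high on the log2 scale (limma adjusted p 0.136). Among ternary complex and proteolysis genes 5 of 8 were tested, and Adamts1, a secreted protease, averaged 9645 ± 654 for the neg libraries, 7891 ± 445 for sub, 5201 ± 1777 for low and 5260 ± 1418 for high without passing (limma adjusted p 0.0637 for low and 0.0789 for high against neg).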

How the data were processed

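RNA from 12000 sorted cells per library underwent a DNase step of 30 min before stranded library construction with a low-input kit, per the labels' protocols. The values the authors deposited are normalised counts (signal), in 1 table of genes by libraries; the submitters' processing notes name mm10, Salmon and DESeq2 1.26.0, and the annotation and use of strand are not given in the sources used here. In all 12 columns, 100% of values above 0 were whole multiples (within 0.01) of the column's smallest value (0.691 to 1.22), so reads were recovered by division. A read was worth close to 1 in sub 3 (0.997) and high 2 (1.01), where 10.5% and 1.37% of the values above 0 were whole as deposited.

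Genes with a mean of at least 10 (16128) were tested with limma 3.58.1 in R 4.3.3 on log2(normalised count + 1), with population as the only term, all 12 libraries and a variance trend; tests were two-sided, with Benjamini-Hochberg adjustment over all genes at 0.05. The pseudocount understates fold changes of low genes, while a library at 0 can make the log2 change larger than the ratio of means, as for Igf1 and Igfbp7. The fit was also tried on simulated data, whose outcome is not given here and is not used. Alternatives included edgeR 4.0.16 (quasi-likelihood) and DESeq2 1.42.0 on recovered reads of all 12 libraries. The named genes were the 9 members, pathway genes past the threshold, and the 3 genes most like each member; other pathway genes were named after their values were seen. Members and lists were chosen with earlier results of these data known. Floors and intervals cover counting error alone, since PCR reads are not independent molecules. Libraries with the same number share a tag in the labels whose meaning is not stated.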

Additional observations from a re-analysis of the deposited data

How the results depend on the processing

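The count of called members, 2 in low against neg, became 1 with no filter, 0 in a fit of the 2 populations alone, 3 with a pseudocount of 5 (Igfbp7 added), and 0 to 1 when libraries were left out; it stayed at 2 in DESeq2, which called Igfbp6 in place of Igfbp5. For high against sub, 2 became 1 with no filter, 1 in the fit of the 2 populations, and 0 to 2 with libraries left out. High against neg had 3 called members, with 2 to 4 over its alternatives, and sub against neg and high against low stayed at 0 in every alternative run. Igfbp3 was counted in high against neg alone. With the replicate number as a block the counts were 2, 2 and 3; same-numbered libraries did not correlate across genes, and the labels do not say whether they were paired. No called member or pathway gene changed sign. Uncalled values did with libraries left out: for sub against neg, Igfbp5 ranged from -0.80 to 0.74 and Igfbp6 from -3.00 to 2.14; for high against low, Igfbp4 from -2.03 to 0.94, Igfbp7 from -1.04 to 3.84, Igf1 from -0.045 to 4.64 and Igf1r from -0.025 to 0.21; for low against neg, Igf1 from -3.36 to 1.32. Igfbp7 in high against low was -0.34 in edgeR and -0.38 in DESeq2. The causes were not tested.

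The count of all genes called ranged, over the alternatives, from 0 to 1574 for sub against neg (192 in limma), 0 to 598 for high against low (0), 203 to 2015 for low against neg (757), 341 to 1952 for high against neg (757) and 8 to 1349 for high against sub (159); the highest was DESeq2 in each. Calls of the members in low against sub are not reported under any setting, since they were chosen on it.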

Other observations

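The summed IGF-binding proteins took nearly equal shares of neg and sub libraries that carry the same replicate number. The share of all normalised counts was 0.156% in neg 1 and 0.152% in sub 1, 0.223% in neg 2 and 0.190% in sub 2, and 0.329% in neg 3 and 0.316% in sub 3. The brighter gates did not follow this order: the shares were 0.0197%, 0.0245% and 0.00625% in low 1 to 3, and 0.00910%, 0.00671% and 0.00871% in high 1 to 3. Library 3 was the highest of neg and of sub for Igfbp5 (18361 in neg 3 and 12509 in sub 3) and for the summed stellate and mesenchymal markers (39365 and 36344). Igfbp6 was likewise highest in neg 3 (1845) and in sub 3 (1244). Igfbp3, Igfbp4 and Igfbp7 were not highest in library 3 of both gates. Igfbp3 and Igfbp4 were highest in neg 2 (5107 and 8550) and in sub 3 (10796 and 8129). Igfbp7 was highest in neg 1 (5615) and lowest in sub 1 (645.6). Igfbp3 went the other way in library 1, with 1156 in neg 1 and 5875 in sub 1. The near-equal sums there thus held opposite differences of single members. The sums also include the sub values of Igfbp3 by which the family was chosen. The pattern was noticed after the values were seen and was not tested. Across all genes tested, same-numbered libraries did not deviate together, the 18 correlations of their deviations from the gate means lying between -0.02 and 0.03.

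Igf2bp2, an RNA-binding protein gene named for Igf2 mRNA, was above 0 in all 3 high libraries (531.3, 148.6 and 187.8 normalised counts), in all 3 low libraries (13.4, 585.4 and 1.64), in 2 of 3 sub libraries and in 1 of 3 neg libraries, with a log2 fold change for high against neg of 7.10 ± 2.69 and a limma adjusted p of 0.163.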
